A study of Mus musculus with 16 samples.

Results

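Ezrin, radixin and moesin (ERM proteins) link the actin filaments under the plasma membrane to membrane proteins, and their genes (Ezr, Rdx and Msn) were examined with 7 genes of the cortical actin that they bind. The 7 genes were Actb and Actg1 (cytoplasmic β- and γ-actin), Cttn (cortactin), Limk1 and Limk2 (LIM kinases), Cfl1 (cofilin 1) and Vasp. The 10 genes were chosen by symbol from the 54532 genes of each deposited table. All 10 passed the filter on low values (0.5 FPKM or more as the mean of the libraries compared) in both comparisons, with at least 202 reads behind every value.

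RNA-seq was done in bulk on pulmonary endothelial cells (ECs) that had been bead-purified as CD31+ CD45- cells 24 h after an intratracheal injection. In the first experiment, male WT C57/BL6J mice of 8 weeks received saline (n = 4) or 10 mg/kg lipopolysaccharide (LPS, n = 6), a component of the bacterial outer membrane that provokes acute lung injury. In the second, Fgfr1 iΔEC/iΔEC mice (n = 3), which carry VE-cadherin-CreERT2 and floxed Fgfr1, and their Fgfr1 loxP/loxP littermates (n = 3) all received 2 mg/kg LPS, so that this experiment held no unchallenged lungs. The Cre is driven by an endothelial promoter and is induced with tamoxifen, so the deletion spares other cell types by design. The paper states that both genotypes were given tamoxifen. The knockout was made in adult mice. The exact age of these mice and any pooling of mice per library are not given in the sources used here, and p-values measure only the spread between these libraries. FPKM counts fragments per length of the gene and per size of the library, so levels can be set side by side between genes. The files held between 13478726 and 18807007 gene reads, recovered from the steps of the FPKM values, in a saline library, 17840221 to 19043015 in an LPS library, 15969575 to 17002788 in a loxP/loxP library and 16642177 to 16943522 in an iΔEC/iΔEC library.

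ERM proteins are folded and inactive in the cytosol, and phosphorylation of a threonine near the C terminus by kinases such as ROCK, LOK and SLK keeps them open, so that one end holds the membrane and the other holds F-actin. In endothelium they sit in the cortical actin rim that carries the cell junctions, and they gather ICAM-1 and VCAM-1 under adhering leukocytes. The rim itself turns over through actin nucleation by the Arp2/3 complex, which cortactin stabilises, elongation by VASP and formins, and severing by cofilin, which LIM kinases switch off by phosphorylation. mRNA levels do not report phosphorylation or protein.

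The EC label was checked against marker genes first. None of the 10 endothelial markers was listed at 0 in any library, and their summed level was 5207, 3131, 3878 and 3237 FPKM in the saline libraries and 1359, 3194, 2041, 3231, 2430 and 2972 FPKM in the LPS libraries, with Cldn5, a tight junction claudin, the most abundant. Of these markers, 6 of 10 were lower in LPS (limma, adjusted p at or under 0.05) and 0 were higher, while Pecam1, which encodes CD31, had a log2 fold change of -0.17 (adjusted p = 0.516). Leukocyte transcripts were present although CD45+ cells had been removed. The 7 leukocyte markers summed to 393, 130, 104 and 109 FPKM in saline 1 to 4 and to 3364, 3196, 2221, 2343, 2615 and 1416 FPKM in LPS 1 to 6, with Tyrobp the most abundant and none at 0, and 7 of 7 were higher in LPS. Ptprc, which encodes CD45 itself, rose from 6.97 ± 3.13 FPKM in saline (SD, n = 4) to 34.55 ± 11.4 FPKM in LPS (SD, n = 6). Among the saline libraries, saline 1 stood apart with the highest leukocyte sum and a neutrophil marker sum of 1382 FPKM, where the others had 71.4 to 309 FPKM. Several results, not all, are therefore also given without it. In bulk samples, fewer cells of a type and less RNA per cell cannot be told apart, and the part of leukocyte RNA in the results below was not tested.

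The summed levels of other marker lists moved as well. Macrophage markers (6 of 7 tested higher in LPS, Lyz2 the most abundant, Marco and Ms4a7 at 0 in at least 1 library) summed to 374 to 1200 FPKM in saline and 2049 to 4696 FPKM in LPS. Neutrophil markers (6 of 8 higher, S100a9 the most abundant, Ly6g at 0 in at least 1 library) summed to 1285 to 6628 FPKM in LPS. Epithelial markers (3 of 10 lower, beside 23.7% of all genes, Sftpc the most abundant, none at 0) had a summed mean of 1817 FPKM in saline and 564 FPKM in LPS. Most of that difference lay in Sftpc, with means of 1316 FPKM in saline and 280 FPKM in LPS, and 7 of the 10 did not pass. Lymphocyte markers (3 of 5 tested lower, Cd79a the most abundant), fibroblast markers (4 of 6 tested lower, Col3a1, with Lum at 0 somewhere) and mural markers (3 of 7 lower, Pdgfrb) had summed means of 27.4, 32.0 and 24.4 FPKM in LPS against 93.6, 54.1 and 50.6 FPKM in saline. No mesothelial marker of 4 reached the filter, and each was at 0 in at least 1 library, with the sum at 0.431 FPKM at most.

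The ERM genes lie on chromosomes 17, 9 and X. All 10 genes are protein-coding, and the positions given below are those of the files, which match GENCODE M21 on GRCm38. Promoter windows of RefSeq (GRCm38.p6, 250 bases before to 50 after a start site) were found for 8 of the 10 genes, Actb and Cttn being the genes without one. They were searched on both strands for the CArG box, which SRF binds, for the NF-kB site, for the AP-1 site TGACTCA and for the E-box CACGTG. The windows of Ezr, Msn, Actg1 and Rdx that held a match are shown because they let the reader set the sequence beside the LPS response, with each match in capitals and the gene's strand read 5′ to 3′.
Ezr (chr17:6782731-6783030, minus strand): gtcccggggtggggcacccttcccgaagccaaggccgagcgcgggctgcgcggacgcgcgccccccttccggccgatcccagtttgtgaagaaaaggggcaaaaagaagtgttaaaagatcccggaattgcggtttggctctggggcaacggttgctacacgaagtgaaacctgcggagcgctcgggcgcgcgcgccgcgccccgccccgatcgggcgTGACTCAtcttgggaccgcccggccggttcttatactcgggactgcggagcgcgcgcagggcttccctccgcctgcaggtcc
Msn (chrX:96095795-96096094, plus strand): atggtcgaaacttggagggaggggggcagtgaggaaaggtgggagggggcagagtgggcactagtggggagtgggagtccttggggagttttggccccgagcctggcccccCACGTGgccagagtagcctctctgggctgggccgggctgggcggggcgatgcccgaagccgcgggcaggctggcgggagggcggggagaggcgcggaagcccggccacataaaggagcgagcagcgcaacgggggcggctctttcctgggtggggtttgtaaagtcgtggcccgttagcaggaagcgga
Rdx (chr9:52047691-52047990, plus strand): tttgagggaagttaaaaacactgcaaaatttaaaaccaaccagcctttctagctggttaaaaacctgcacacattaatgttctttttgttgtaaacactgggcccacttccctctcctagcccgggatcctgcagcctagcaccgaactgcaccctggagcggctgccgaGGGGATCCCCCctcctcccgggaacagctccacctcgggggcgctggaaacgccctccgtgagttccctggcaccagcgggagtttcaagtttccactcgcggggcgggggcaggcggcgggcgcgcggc
Actg1 (chr11:120348446-120348745, minus strand): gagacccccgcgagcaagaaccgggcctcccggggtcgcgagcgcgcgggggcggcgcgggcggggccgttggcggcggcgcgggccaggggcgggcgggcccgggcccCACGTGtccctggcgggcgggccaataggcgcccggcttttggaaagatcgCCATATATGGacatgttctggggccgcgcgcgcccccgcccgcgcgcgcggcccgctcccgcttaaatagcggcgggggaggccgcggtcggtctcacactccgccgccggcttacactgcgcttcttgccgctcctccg
Ezr held the AP-1 letters starting 32 bases before the start site, and 5.20% of all 32851 windows hold them. Msn held CACGTG starting 139 bases before the start site, as do 7.15% of all windows. In Rdx, a pair of overlapping NF-kB matches began 80 and 79 bases before the start site of the second of its windows, against a share of 4.51% of windows with that site. Actg1 held a CArG box starting 90 bases before the start site (1.63% of windows) besides a CACGTG starting 141 bases before it. Limk2 had an NF-kB match in 1 of its windows, starting 1 base before the start site. In Vasp, Cfl1 and Limk1 these letters were not in the windows. The matches are a description of the sequence and not of binding.

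The comparison of LPS with saline asked how an inflamed lung changes the transcripts of the endothelial cortex. Of the 10 genes, 7 were higher in LPS (Vasp, Actb, Cfl1, Ezr, Actg1, Msn and Limk1), 1 was lower (Limk2, though not after scaling on the endothelial markers) and 2 did not pass (Rdx and Cttn). The test was limma on log2(FPKM + 1), with 0.05 as the limit of the p adjusted by Benjamini-Hochberg. Among all 14893 genes tested, 29.5% were higher and 23.7% were lower by the same rule, 53.2% in all. When a log2 fold change of 1 or more in size was also required, 6 of the 10 genes were higher and 0 lower, against 11.9% and 6.79% of all genes. The median log2 fold change was 1.20 over the 10 genes and 0.01 over all genes tested. Groups did not overlap for 6 genes that were higher and for 1 that was lower (22.7% and 16.7% of all genes, 39.4% in all). Without saline 1 the counts were 7 higher and 2 lower. The number of lower genes depended on the scaling, with 6 higher and 3 lower after quantile normalization, 7 and 3 after scaling on total reads, and 8 and 0 after scaling on the endothelial markers, settings that put the all-gene median at -0.08, -0.15 and 0.60.

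**Figure D1:**
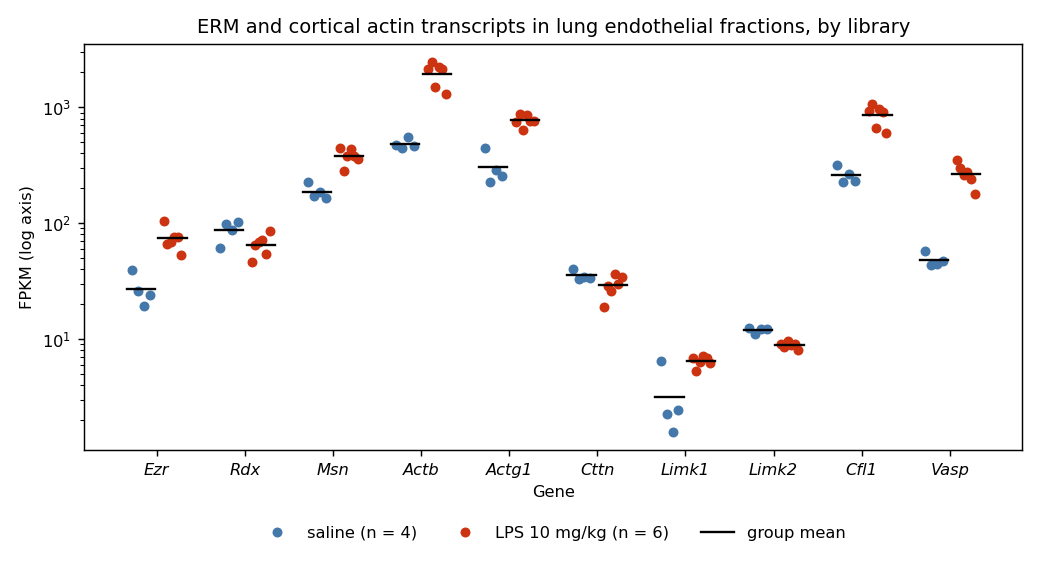
FPKM on a log axis of the 10 genes in each saline (blue, n = 4) and LPS (red, n = 6) library, with black bars for group means. Vasp, Actb, Cfl1, Actg1, Ezr and Msn lie higher in all 6 LPS libraries than in any saline library and Limk2 lower, while for Limk1, Rdx and Cttn the groups overlap. Under scaling on the endothelial markers, the fitted log2 fold change of Limk2 was 0.32, beside an all-gene median of 0.60.

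Among the ERM genes, ezrin and moesin transcripts rose in LPS and radixin transcripts did not pass the test. Ezr (ENSMUSG00000052397, chr17:6738041-6782784), best known from epithelial microvilli, was at 39.3, 25.9, 19.2 and 23.9 FPKM in saline 1 to 4 and at 52.9 FPKM (lowest, LPS 6), 71.9 FPKM (median) and 104 FPKM (highest, LPS 1) in LPS. The groups did not overlap, and saline 1 was the highest of its group. Its mean level was 27.1 ± 8.65 FPKM in saline (SD, n = 4) and 73.9 ± 17.1 FPKM in LPS (SD, n = 6), a log2 fold change of 1.43 ± 0.21 (SE, limma, adjusted p = 0.000263), or 1.62 without saline 1. An exon of Sytl3 on the other strand overlaps Ezr, and Sytl3 did not go over 1.46 FPKM in any of these libraries.

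Moesin is the ERM protein that endothelium and leukocytes express most, and Msn (ENSMUSG00000031207, chrX:96096042-96168552) was the most abundant of the 3 genes in every library. It was at 224.5, 171, 184 and 166 FPKM in saline 1 to 4 and at 283 FPKM (lowest, LPS 2), 379 FPKM (median) and 444 FPKM (highest, LPS 1) in LPS. All LPS libraries were above all saline libraries, and saline 1 was again the highest of its group. The log2 fold change was 1.02 ± 0.17 (SE, limma, adjusted p = 0.00056), with means of 186 ± 26.7 FPKM in saline (SD, n = 4) and 380 ± 58.7 FPKM in LPS (SD, n = 6). After quantile normalization it was 0.44 (limma, adjusted p = 0.0843) and no longer passed. A small RNA gene, Gm24718, overlaps an exon of Msn.

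Radixin, the ERM protein of liver canaliculi and hair cell stereocilia, did not rise with its relatives. Rdx (ENSMUSG00000032050, chr9:52047173-52088735) was at 61.1, 98.0, 86.5 and 102 FPKM in saline 1 to 4 and at 46.5 FPKM (lowest, LPS 1), 66.7 FPKM (median) and 85.1 FPKM (highest, LPS 6) in LPS. The groups overlapped through saline 1, the lowest of its group, while the other 3 saline libraries were above every LPS library. The log2 fold change was -0.41 (95% interval -0.83 to 0.02, limma, adjusted p = 0.0948), with means of 86.9 ± 18.4 FPKM in saline (SD, n = 4) and 65.2 ± 13.5 FPKM in LPS (SD, n = 6). In limma it passed as lower without saline 1 (-0.57, adjusted p = 0.0216), without LPS 6 (-0.49, adjusted p = 0.0475), after quantile normalization (-0.98) and after scaling on total reads (-0.61), and was 0.35 (adjusted p = 0.167) after scaling on the endothelial markers, which is -0.25 relative to the all-gene median there.

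The makeup of the ERM family does not depend on the scaling of a library. Radixin made up 18.8, 33.3, 29.9 and 35.0% of the summed FPKM of Ezr, Rdx and Msn in saline 1 to 4 and 7.82% (lowest, LPS 1), 12.8% (median) and 17.2% (highest, LPS 6) in LPS. The groups did not overlap, and the mean share was lower by 16.4 percentage points (two-sided exact permutation p = 0.00952, adjusted over 8 shares 0.0152), where the design of 4 and 6 libraries allows no smaller p. Ezrin made up 8.93 ± 2.31% (SD, n = 4) in saline and 14.2 ± 2.43% (SD, n = 6) in LPS, with overlapping groups (exact permutation p = 0.0190, adjusted 0.0218). That difference of 5.29 percentage points was 2.97 when shares were taken of reads in place of FPKM. Moesin went from 61.8 ± 5.66% (SD, n = 4) to 73.0 ± 2.46% (SD, n = 6), also with overlap (exact permutation p = 0.0190, adjusted 0.0218). Without saline 1, the differences were -19.9, 6.35 and 13.5 percentage points for radixin, ezrin and moesin. In the coding sequence the family members were 69.6 to 72.3% identical, and the longest stretch that a pair had in common was 32 bases, between Ezr and Msn.

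**Figure D2:**
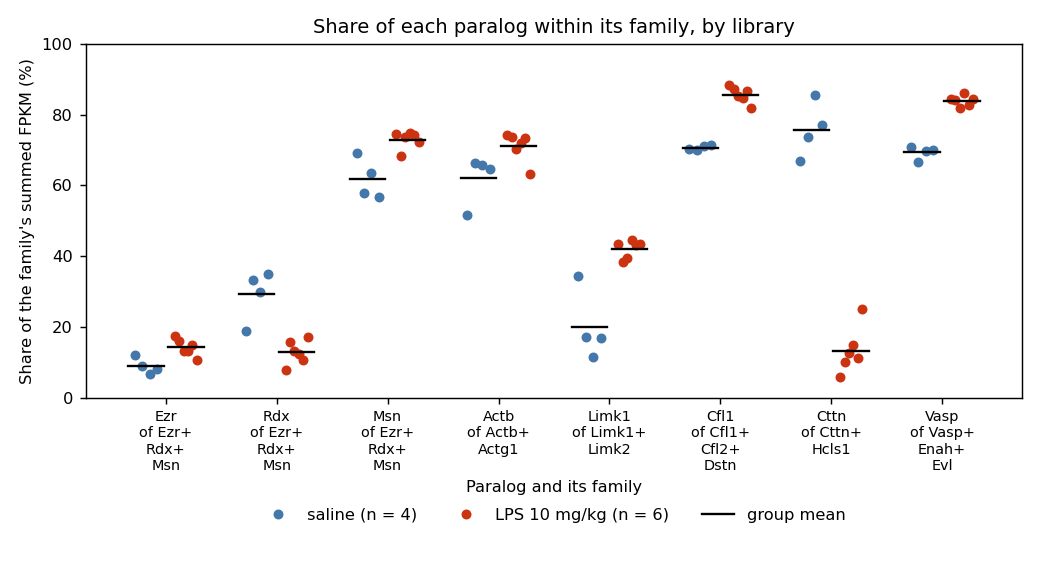
Share (%) of each of 8 paralogs in the summed FPKM of its family in each saline (blue, n = 4) and LPS (red, n = 6) library, with black bars for group means. Rdx and Cttn take a lower share in all 6 LPS libraries and Limk1, Cfl1 and Vasp a higher one, while Ezr, Msn and Actb shares overlap between groups.

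The other transcripts that run most like each ERM gene were listed as a description, by Pearson's r of log2(FPKM + 1) over the 10 libraries of the first experiment and the 12849 genes that averaged 1 FPKM or more, where the points share both treatment groups and the same scaling. Closest to Ezr were Mfsd13a (0.993), Slc7a5 (0.993), a large neutral amino acid transporter, and Gas7 (0.993). Closest to Msn were Cyfip1 (0.991), a subunit of the WAVE complex, Plekhb2 (0.990) and Srp72 (0.988), a subunit of the signal recognition particle. Rdx ran closest to Calcrl (0.967), the adrenomedullin receptor, Sox17 (0.960), an arterial endothelial transcription factor, and Clec1a (0.958). Calcrl, Sox17 and Clec1a had log2 fold changes of -0.58, -0.42 and -0.64, and none of the 3 passed the test (limma, adjusted p = 0.133, 0.144 and 0.0854).

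Cytoplasmic actin transcripts rose severalfold in LPS, β-actin more than γ-actin. Actb (chr5:142903115-142906754), often used as a reference gene, was at 473, 449, 552 and 465.6 FPKM in saline 1 to 4 and at 1306 FPKM (lowest, LPS 6), 2124 FPKM (median) and 2439 FPKM (highest, LPS 2) in LPS. All LPS libraries were above all saline libraries, and saline 1 was within the range of the other saline libraries. The ratio of the mean levels was 4.03 and the log2 fold change 1.98 ± 0.24 (SE, limma, adjusted p = 6.53e-05). Actg1 (chr11:120345690-120348542) was at 444, 228, 288 and 254 FPKM in saline 1 to 4 and at 641 FPKM (lowest, LPS 3), 764 FPKM (median) and 869 FPKM (highest, LPS 2) in LPS. The groups did not overlap, saline 1 again being the highest of its group, and the log2 fold change was 1.39 ± 0.21 (SE, limma, adjusted p = 0.000306), or 1.59 without saline 1.

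Actb and Actg1 are 88.7% identical in the coding sequence with an identical stretch of up to 62 bases, so reads of one could be counted on the other to an extent that depends on the treatment of multiple alignments, which is not given in the sources used here. The Actb share of the 2 transcripts was 51.6% in saline 1, 64.7 to 66.3% in the other saline libraries, 63.2% in LPS 6 and 70.2 to 74.1% in the other LPS libraries. The difference of 9.03 percentage points had an exact permutation p of 0.0381 (adjusted 0.0381) with overlapping groups. It no longer passed when any library other than LPS 6 was left out, at 5.54 percentage points without saline 1 (exact permutation p = 0.0952). Of the other actin isoforms, 3 of 4 were tested and 0 passed (limma, 0 also at an unadjusted p under 0.05), while without saline 1 there was 1 that passed as higher. The smooth muscle actin Acta2 ranged from 6.59 to 77.7 FPKM in saline and from 17.4 to 43.4 FPKM in LPS.

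Vasp, Cfl1 and Limk1, which act on actin filaments or on their severing, were higher in LPS. Vasp (chr7:19256929-19271817), which elongates filaments at their barbed ends, was at 58.0, 43.6, 44.3 and 47.4 FPKM in saline 1 to 4 and at 178 FPKM (lowest, LPS 6), 268 FPKM (median) and 351 FPKM (highest, LPS 1) in LPS. It had the largest log2 fold change of the 10 genes, at 2.42 ± 0.18 (SE, limma, adjusted p = 3.14e-06), and the groups did not overlap. Cfl1 (chr19:5490455-5495201), which severs and depolymerises filaments, was at 316, 227, 265 and 229.5 FPKM in saline 1 to 4 and at 598 FPKM (lowest, LPS 6), 922 FPKM (median) and 1075 FPKM (highest, LPS 2) in LPS. The groups did not overlap, and the log2 fold change was 1.70 (adjusted p = 8.98e-05, limma). An exon of Snx32 on the other strand overlaps Cfl1, and Snx32 did not go over 10.7 FPKM in these libraries.

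The LIM kinases, which inactivate cofilin by phosphorylation, moved in opposite directions, except after scaling on the endothelial markers, where both log2 fold changes were above 0. Limk1 (chr5:134656039-134688598) was at 6.44, 2.26, 1.58 and 2.43 FPKM in saline 1 to 4 and at 5.26 FPKM (lowest, LPS 2), 6.60 FPKM (median) and 7.15 FPKM (highest, LPS 4) in LPS. Only saline 1 reached the LPS range, and it made the groups overlap. The log2 fold change was 0.95 ± 0.24 (SE, limma, adjusted p = 0.00679) and 1.27 without saline 1, on a scale that understates the change of so low a gene. Limk2 (chr11:3344256-3409189) was at 12.4, 11.0, 12.1 and 12.1 FPKM in saline 1 to 4 and at 8.02 FPKM (lowest, LPS 6), 8.96 FPKM (median) and 9.64 FPKM (highest, LPS 3) in LPS. The groups did not overlap and varied little within, and the log2 fold change was -0.39 ± 0.09 (SE, limma, adjusted p = 0.00372), while after scaling on the endothelial markers it was 0.32 (adjusted p = 0.246), or -0.28 relative to the all-gene median. The Limk1 share of the pair rose from 19.9 ± 9.89% (SD, n = 4) to 42.1 ± 2.54% (SD, n = 6), with no overlap (exact permutation p = 0.00952, adjusted 0.0152). Without saline 1 the difference was 26.9 percentage points in place of 22.2 (exact permutation p = 0.0238).

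Cttn (chr7:144435733-144471009), the cortactin gene of non-haematopoietic cells, did not pass the test. It was at 40.6, 32.8, 34.5 and 33.8 FPKM in saline 1 to 4 and at 18.8 FPKM (lowest, LPS 1), 29.2 FPKM (median) and 36.6 FPKM (highest, LPS 4) in LPS. The groups overlapped, and the log2 fold change was -0.30 (95% interval -0.68 to 0.07, limma, adjusted p = 0.152). In limma it passed as lower after quantile normalization (-0.71) and after scaling on total reads (-0.50), and as higher after scaling on the endothelial markers (0.44, adjusted p = 0.0328), which is -0.16 relative to the all-gene median there.

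The cortactin pair had the largest difference in makeup of the 8 shares. Hcls1, the cortactin of blood cells, was at 11.9 ± 6.05 FPKM in saline (SD, n = 4) and 215 ± 68.5 FPKM in LPS (SD, n = 6), with a log2 fold change of 4.11 (adjusted p = 5.16e-06, limma). The share of Cttn in the sum of Cttn and Hcls1 was 66.8, 73.6, 85.6 and 77.2% in saline 1 to 4 and 5.86% (lowest, LPS 1), 11.8% (median) and 25.0% (highest, LPS 6) in LPS. The mean difference was -62.6 percentage points (exact permutation p = 0.00952, adjusted 0.0152), and the lowest and highest shares belonged to the LPS libraries with the highest and lowest leukocyte marker sums, 3364 and 1416 FPKM. Vasp took a larger share beside its relatives Evl and Enah, from 69.4 ± 1.86% (SD, n = 4) to 83.9 ± 1.51% (SD, n = 6) of their sum, although Evl itself, which is abundant in blood cells, had a log2 fold change of 1.22 (adjusted p = 0.000186, limma). Cfl1 went from 70.7 ± 0.633% (SD, n = 4) to 85.7 ± 2.27% (SD, n = 6) of the sum with Cfl2 and Dstn. Dstn (destrin) had a log2 fold change of 0.49 (adjusted p = 0.0286, limma), which was -0.12 after quantile normalization, and that of Cfl2 was -0.24 (adjusted p = 0.151). Neither share overlapped between groups (both exact permutation p = 0.00952, adjusted 0.0152).

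The order of the levels changed as well. In saline, Actb (485 FPKM on average) stood above Actg1 (304 FPKM) and Cfl1 (259.5 FPKM), which overlapped each other, then came Msn (186 FPKM), Rdx (86.9 FPKM) and Vasp (48.3 FPKM), then Cttn (35.4 FPKM) and Ezr (27.1 FPKM), which overlapped, and last Limk2 (11.9 FPKM) and Limk1 (3.18 FPKM). In LPS, Actb (1954 FPKM) was followed by the overlapping pair Cfl1 (858.5 FPKM) and Actg1 (774 FPKM), by Msn (380 FPKM) overlapping Vasp (267 FPKM), by Ezr (73.9 FPKM) overlapping Rdx (65.2 FPKM), and by Cttn (29.0 FPKM), Limk2 (8.86 FPKM) and Limk1 (6.45 FPKM). Vasp thus passed Rdx in rank and Ezr passed Cttn, while Limk1 stayed last in both groups.

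Within the LPS group, the libraries at the ends of the leukocyte marker range were at the ends of the range for several, not all, of these genes. LPS 6, with the lowest leukocyte sum (1416 FPKM), was the lowest LPS library for Actb, Cfl1, Vasp, Ezr and Limk2 and the highest for Rdx. LPS 1, with the highest leukocyte sum (3364 FPKM) and the lowest endothelial sum (1359 FPKM), was the highest for Ezr, Msn and Vasp and the lowest for Rdx and Cttn. LPS 2, with the next highest leukocyte sum (3196 FPKM), was the highest for Actb, Cfl1 and Actg1 but the lowest for Msn and Limk1, and LPS 3 was the lowest for Actg1. In the saline group, saline 1 with its leukocyte sum of 393 FPKM was the highest for Ezr, Msn, Actg1, Cfl1, Vasp, Limk1, Limk2 and Cttn and the lowest for Rdx. Actb was an exception there, at 473 FPKM in saline 1 where the others had 449 to 552 FPKM. Saline 1 also had the highest endothelial, epithelial, macrophage and neutrophil sums of its group (5207, 2777, 1200 and 1382 FPKM), but not the highest lymphocyte sum. Whether the leukocyte or other marker transcripts account for the differences between libraries was not tested.

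**Figure D3:**
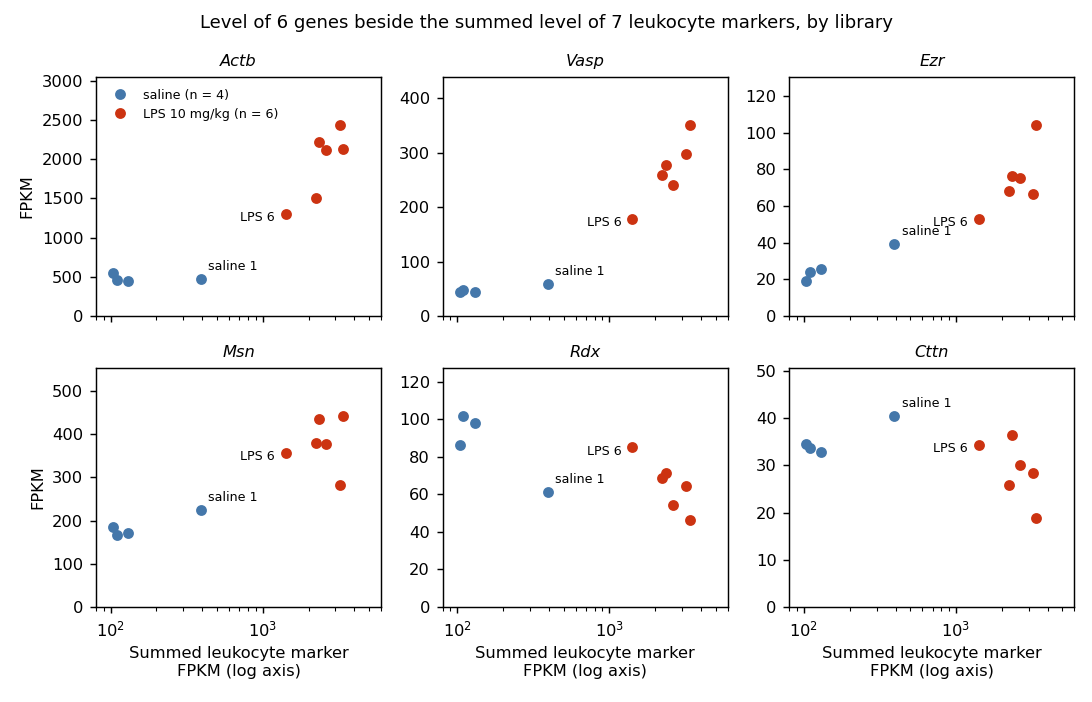
FPKM of Actb, Vasp, Ezr, Msn, Rdx and Cttn (linear axis from 0) against the summed FPKM of 7 leukocyte markers (log axis), with 1 point per saline (blue, n = 4) or LPS (red, n = 6) library. LPS 6 has the lowest leukocyte sum of the LPS libraries (1416 FPKM) and the lowest Actb, Vasp and Ezr among them, and saline 1 the highest of the saline libraries (393 FPKM). The points share treatment and scaling.

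The wider actin cortex was described with 121 genes in 12 groups, of which 112 were tested, and 11 of the groups are described singly. In LPS, 63 were higher and 17 lower (limma, adjusted p at or under 0.05), against 29.5% and 23.7% of all genes, and their median log2 fold change was 0.65. Without saline 1 the counts were 67 and 14. After quantile normalization they were 47 and 28, and after scaling on the endothelial markers 82 and 3, where Wasf3, Myh10 and Mylk were the 3. With that last scaling the all-gene median was 0.60, and 744 of all genes were lower in place of 3529. The 7 leukocyte markers, beside which each of these groups should be read, averaged 184 FPKM in sum in saline and 2526 FPKM in LPS, and their part in the counts was not tested. Per group, the 2 genes with the largest change among those whose libraries did not overlap are given, and counts of 5 or fewer are named in full after their values were seen.

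Among the ERM linkers, kinases and relatives, 7 of 15 tested were higher and 3 lower, beside 29.5% and 23.7% of all genes. The counts were 6 and 5 both after quantile normalization and after scaling on total reads, and 9 and 0 after scaling on the endothelial markers. Spn, the sialomucin CD43 of leukocytes that ERM proteins bind, was at 3.62 ± 1.14 FPKM in saline (SD, n = 4) and 66.0 ± 18.6 FPKM in LPS (SD, n = 6), a difference of 3.85 on the log2 scale (adjusted p = 7.30e-07, limma). Stk10, which encodes the ERM kinase LOK of lymphocytes, rose from 7.14 to 61.3 FPKM (log2 fold change 2.89, limma, adjusted p = 6.37e-06). The adhesion receptor genes Icam1 and Cd44, named after their values were seen, rose by 2.35 and 2.53. The 3 lower genes were Podxl, a sialomucin of the endothelial surface (-0.78), Rock2 (-0.49) and Nf2, which encodes the ERM relative merlin (-0.39). None of the 3 passed after scaling on the endothelial markers (-0.01, 0.23 and 0.33), but these values lie under the all-gene median there, 0.60. Without saline 1, 1 gene of the group was lower in place of 3. Rock1 had a log2 fold change of -0.05 (adjusted p = 0.787, limma).

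Of the Arp2/3 complex, which nucleates branched actin, 7 of 9 tested subunit genes were higher and 0 lower, and the median log2 fold change of 1.48 was the highest of the 12 groups. Actr3 went from 44.8 ± 5.90 FPKM in saline (SD, n = 4) to 202 ± 35.9 FPKM in LPS (SD, n = 6), and Arpc1b from 43.8 to 200.2 FPKM, with log2 fold changes of 2.14 and 2.18 (limma, adjusted p = 2.57e-06 and 3.12e-05). Of the WASP and WAVE genes, which activate the complex, 8 of 13 were higher and 3 lower, or 5 and 5 after quantile normalization and 9 and 1 after scaling on the endothelial markers. Was, the WASP of blood cells, rose by 2.99 (limma, adjusted p = 2.47e-05) and Hcls1 by 4.11. The lower genes were Wasf3 (-1.06), Wasl, which encodes the N-WASP of most tissues (-0.83), and Abi2 (-0.55). Of these, Wasl (-0.13) and Abi2 (0.00) did not pass after scaling on the endothelial markers, where the all-gene median was 0.60.

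Formins were split, with 4 of 9 higher and 4 lower, or 4 and 3 without saline 1. Their median log2 fold change was -0.29, or -0.09 without saline 1 and 0.43 after scaling on the endothelial markers. Fmnl1, a formin of leukocytes, rose by 2.70 (limma, adjusted p = 3.08e-05) and Diaph2 by 1.14 (adjusted p = 0.00371), and Fmnl2 and Diaph1 rose by 1.22 and 1.03. Daam1 (-1.02), Daam2 (-0.48), Fhod1 (-0.47) and Fmnl3 (-0.39) were lower. After scaling on the endothelial markers 0 formins were lower and these 4 were at -0.30, -0.13, 0.27 and 0.36, beside an all-gene median of 0.60. Among the Ena and focal adhesion partners, 3 of 6 were higher and 0 lower (3 and 2 after quantile normalization), with Evl at 1.22, Zyx at 1.18 and Tln1, the talin that links integrins to actin, at 1.08.

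Around cofilin, 4 of 10 tested relatives and regulators were higher and 0 lower, beside 29.5% and 23.7% of all genes. The counts were 2 and 2 after quantile normalization, 3 and 1 after scaling on total reads and 8 and 0 after scaling on the endothelial markers. Pak1, a kinase that activates LIM kinases, was at 0.456 ± 0.0972 FPKM in saline (SD, n = 4) and 5.60 ± 1.40 FPKM in LPS (SD, n = 6), a log2 fold change of 2.15 (adjusted p = 3.53e-06, limma). Pak2 rose by 0.60 and Tesk2 by 0.59, and Dstn is given above. Of the genes that bind actin monomers, 6 of 7 were higher and 0 lower, among them Tmsb4x, the main sequestering peptide thymosin β4, from 817 ± 126 FPKM in saline (SD, n = 4) to 2867 ± 816 FPKM in LPS (SD, n = 6), and the profilin gene Pfn1 (2.01).

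Capping and severing genes held 4 of 6 higher, with Capg at 3.64, Capza2 at 1.45, Capza1 at 1.38 and Capzb at 1.25, and 1 lower, Gsn (gelsolin), at -1.33 (limma, adjusted p = 0.000139), or -0.56 (adjusted p = 0.0547) after scaling on the endothelial markers. Among cross-linking and spectrin genes 8 of 12 were higher and 2 lower, or 5 and 3 after quantile normalization and 10 and 0 after scaling on the endothelial markers. Coro1a and Lcp1, the coronin and plastin of blood cells, rose by 3.25 and 2.43, and the membrane skeleton genes Sptbn1 and Sptan1 were lower at -1.25 and -0.45. After scaling on the endothelial markers these 2 were at -0.49 and 0.32 without passing, beside an all-gene median of 0.60. Tropomyosins and myosin II held 5 of 13 higher and 3 lower, beside 29.5% and 23.7% of all genes. The higher ones were Tpm3 (1.06), Myl6 (0.99), Tpm4 (0.87), Myl12a (0.80) and Ppp1cb (0.47). Without saline 1, 7 were higher and 3 lower. After quantile normalization 2 were higher and 4 lower, and after scaling on the endothelial markers 9 and 2. The 3 lower genes were Myh10 (-1.57), Mylk, which encodes myosin light chain kinase (-1.17), and Myl12b (-0.53, or 0.13 after scaling on the endothelial markers).

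**Figure D4:**
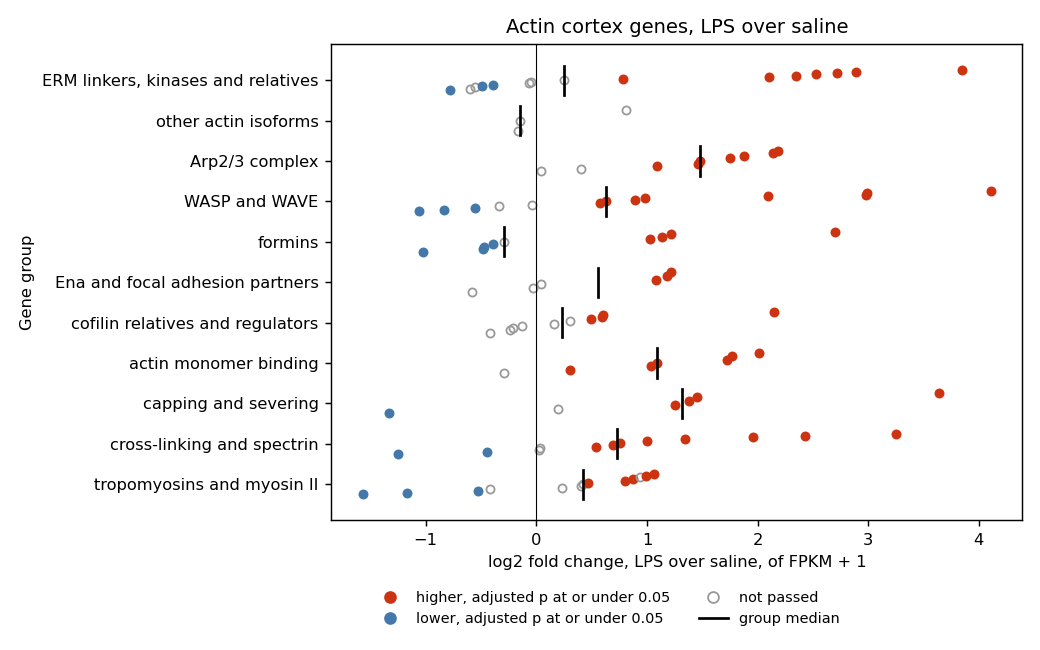
Log2 fold change of FPKM + 1, LPS over saline, of 103 tested genes in 11 groups of the actin cortex, as filled points where the adjusted p (limma, Benjamini-Hochberg) was at or under 0.05 (red higher, blue lower), as open grey points otherwise, and with black bars for group medians. The medians run from -0.29 for formins to 1.48 for the Arp2/3 complex. After scaling on the endothelial markers, where the all-gene median was 0.60, 3 genes (Wasf3, Myh10 and Mylk) were lower in place of 16. The median of formins was then 0.43.

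The second experiment asked whether loss of endothelial Fgfr1 changes these transcripts in a lung challenged with LPS. The targeted gene came first as a check of the labels. Fgfr1, the FGF receptor, was at 2.90, 2.91 and 2.59 FPKM in loxP/loxP 1 to 3 and at 0.683, 1.41 and 1.15 FPKM in iΔEC/iΔEC 1 to 3. All 3 iΔEC/iΔEC libraries were below all loxP/loxP libraries, as the labels would have it, and the log2 fold change was -0.88 ± 0.16 (SE, limma, adjusted p = 0.962; exact permutation p = 0.1, the smallest that 3 against 3 can give). Its mean level fell by 61.4%. In the first experiment, Fgfr1 was lower in LPS, with a log2 fold change of -0.70 (adjusted p = 0.0113, limma).

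None of the 10 cortex genes passed in iΔEC/iΔEC over loxP/loxP mice, and 0 of 10 had an unadjusted p under 0.05. Over all 14945 genes, 0 passed (0%, limma, and also limma-voom on recovered reads) and 4.42% had an unadjusted p under 0.05. With the replicate number as a block 0 passed and 7.72% had an unadjusted p under 0.05, none of the 10 genes among them. Log2 fold changes of the 10 genes ran from -0.20 (Ezr) to 0.20 (Cttn), with a median of 0.10 beside 0.01 over all genes. Of the 10, 8 were above 0, as were 7940 of all 14945 genes. Those 8 were below 0 after scaling on the endothelial markers, where the all-gene median was -0.18 and 5 of the 10 lay above it. In the first experiment, by contrast, the range ran from -0.41 to 2.42, but the mice, the dose and the contrast differ, and the difference between experiments was not tested.

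Of the ERM genes, Ezr and Rdx overlapped between the genotypes and Msn did not, and none passed the test. Msn was at 353, 357 and 294.5 FPKM in loxP/loxP 1 to 3 and at 372.5, 413 and 358.5 FPKM in iΔEC/iΔEC 1 to 3. It was the 1 gene of the 10 whose groups did not overlap, by the gap between 357 and 358.5 FPKM, and 6.02% of all genes were apart in this direction (10.1% in either). Its log2 fold change was 0.19 (95% interval -0.21 to 0.59, limma, adjusted p = 0.962). Ezr was at 42.5, 51.2 and 73.2 FPKM in loxP/loxP and at 30.4, 63.1 and 54.8 FPKM in iΔEC/iΔEC. Its libraries spread widely in both genotypes, so the interval of its log2 fold change, -0.95 to 0.56 around -0.20, is the widest of the 10. Rdx was at 68.1, 49.7 and 79.8 FPKM in loxP/loxP and at 80.1, 50.9 and 92.6 FPKM in iΔEC/iΔEC, a log2 fold change of 0.16 (95% interval -0.49 to 0.80). The libraries numbered 2 were the lowest of both genotypes for Rdx.

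Both actin transcripts overlapped between the genotypes. Actb was at 1283, 1624 and 1131 FPKM in loxP/loxP 1 to 3 and at 1112, 1596 and 1241 FPKM in iΔEC/iΔEC 1 to 3. The libraries numbered 2 were the highest in both genotypes, and the log2 fold change was -0.03 (95% interval -0.71 to 0.65). Actg1 had a mean of 548 ± 50.6 FPKM (SD, n = 3) in loxP/loxP and 620 ± 52.8 FPKM (SD, n = 3) in iΔEC/iΔEC, a log2 fold change of 0.18 (95% interval -0.28 to 0.63). Cfl1 and Vasp had log2 fold changes of 0.03 (95% interval -0.48 to 0.54) and 0.01 (95% interval -0.41 to 0.43). The tightest intervals were those of Limk2 (0.04, -0.18 to 0.26), Limk1 (0.17, -0.11 to 0.44) and Cttn (0.20, -0.10 to 0.49), and a change beyond these bounds in either direction lies outside them. Rdx, Msn, Actg1, Cttn and Limk1 were higher in iΔEC/iΔEC in 3 of 3 same-numbered pairs, and Fgfr1 in 0 of 3. How many of all genes were higher in every pair was not counted. After scaling on the endothelial markers these 5 genes all had log2 fold changes below 0 (-0.08 for Rdx to -0.04 for Cttn) but 0.10 to 0.14 above the all-gene median there.

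**Figure D5:**
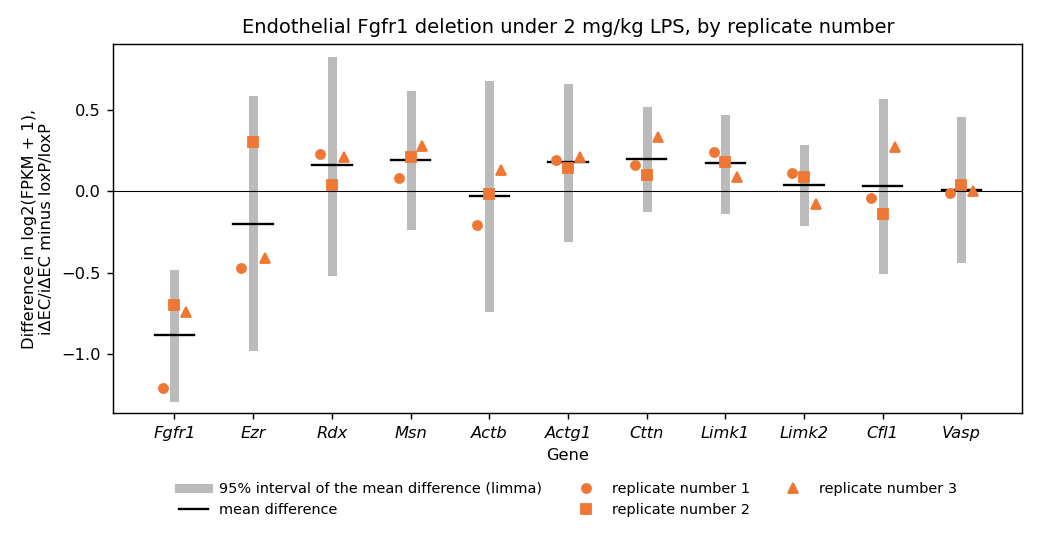
Difference in log2(FPKM + 1) between iΔEC/iΔEC and loxP/loxP libraries of the same number (orange circles, squares and triangles for numbers 1 to 3) for Fgfr1 and the 10 genes, with black bars for the mean difference and grey bars for its 95% interval (limma, no block). Fgfr1 lies below 0 in all 3 pairs, and the intervals of the 10 genes all include 0.

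For family makeup, none of the 8 shares passed between the genotypes (adjusted exact permutation p of 0.933 or more). Within same-numbered pairs the Limk1 share (2.49, 1.82 and 3.13 percentage points) and the Msn share were higher in iΔEC/iΔEC in 3 of 3, and the Actb share (-5.78, -2.27 and -1.19 percentage points) was lower in 3 of 3. An exact test over 3 pairs cannot go below p = 0.25. Ezrin, radixin and moesin made up 12.2, 14.5 and 73.3% of ERM transcripts in loxP/loxP and 9.70, 14.9 and 75.5% in iΔEC/iΔEC. Set beside the first experiment, with the tables normalized separately and doses and genotypes that differ, the shares were 14.2, 12.8 and 73.0% in LPS and 8.93, 29.2 and 61.8% in saline. The radixin and moesin shares of both genotypes lay nearer to those of LPS than to those of saline, while the ezrin share of iΔEC/iΔEC lay nearer to saline. The level of Actb in loxP/loxP (1131 to 1624 FPKM) likewise overlapped the LPS range (1306 to 2439 FPKM) and not the saline range (449 to 552 FPKM). No test was made across the tables.

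In the wider actin cortex, 0 of 113 genes tested passed in iΔEC/iΔEC, with 11 higher and 1 lower at an unadjusted p under 0.05 (2.07% and 2.36% of all genes), and the median log2 fold change was 0.05. Limma-voom also made 0 calls. Groups did not overlap for 15 genes higher and 3 lower, where 6.02% and 4.09% of all genes did so. Rock2, which encodes a kinase of ERM proteins, was among the 11, at 14.1 ± 1.39 FPKM in loxP/loxP (SD, n = 3) and 18.5 ± 0.691 FPKM in iΔEC/iΔEC (SD, n = 3) (log2 fold change 0.38, limma, adjusted p = 0.962), and Rock1 had a log2 fold change of 0.14 (adjusted p = 0.962). Others of the 11 were Acta1 (1.62), Icam1 (0.90), Vcl (0.59), Fmnl2 (0.50), Srf (0.38), Actn1 (0.34), Nckap1 (0.33), Myh9 (0.33) and Slk (0.28), and the 1 lower was Tpm2 (-0.72), all named after their values were seen. Endothelial markers summed to 2763, 2206 and 2315 FPKM in loxP/loxP and 3489, 2511 and 3211 FPKM in iΔEC/iΔEC, and leukocyte markers to 790, 1087 and 1009 FPKM and 558, 1316 and 852 FPKM, with none of either list at 0, 0 of 10 and 0 of 7 passing, and Cldn5 and Tyrobp the most abundant. Epithelial markers summed to 840 to 2660 FPKM in loxP/loxP and 430 to 992 FPKM in iΔEC/iΔEC (0 of 10 passing, Sftpc the most abundant, none at 0), and 10 of 10 had log2 fold changes below 0, with 3 at an unadjusted p under 0.05. Neutrophil markers (0 of 8 passing, S100a9 the most abundant, none at 0) had summed means of 2108 and 1577 FPKM, with 8 of 8 below 0, while 9 of 10 endothelial markers were above 0. Macrophage and lymphocyte markers had 7 of 7 and 6 of 6 below 0, and mural and fibroblast markers 5 of 7 and 4 of 6, with 0 passing. In all 3 same-numbered pairs the endothelial sum was higher and the epithelial, neutrophil and mural sums were lower in iΔEC/iΔEC. The part of these cell types in the values was not tested.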

How the data were processed

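Per the submitters' processing notes, reads were aligned with HISAT2 2.0.5 and counted with featureCounts 1.5.0-p3; the authors deposited FPKM per gene in 1 table per experiment (mm10, GRCm38) and used DESeq2. The strand setting of the counting and the annotation release are not given in the sources used here. Each table was fitted on its own. FPKM was scaled by median-of-ratios factors, genes with a mean of 0.5 FPKM or more were kept, and log2(FPKM + 1) was tested with limma 3.58.1 (R 4.3.3, trended prior) in place of a count model, since the values are not counts. Adjustment was by Benjamini-Hochberg over all genes kept, with a threshold of 0.05. Shares and single values were tested by two-sided exact permutation (scipy 1.17.1 with Python 3.11.15, numpy 2.4.6, pandas 2.3.3 and, for plots, matplotlib 3.10.9). Depth was read from the FPKM steps, of which 100.0% came out as whole reads within 0.01, and these reads went into limma-voom as an alternative. Of the symbols in the second table, 11 differed and were taken from the first.

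On simulated data, 99% of genes changed by 1 on the log2 scale and 100% of those changed by 2 were recovered for LPS (14657 genes), and 78% and 100% for iΔEC/iΔEC (14742 genes). False calls numbered 14 for LPS, beside 96 and 97 changed genes, and 18 for iΔEC/iΔEC, beside 100 and 99. Changes of 1 had median estimates of 0.841 for LPS and 0.85 for iΔEC/iΔEC, and changes of 2 had 1.73 in both. The simulation gave every gene the same dispersion and changed only genes with enough reads. Its shares hold for that setting and do not give the power on the real libraries. There, the deleted Fgfr1 itself had an adjusted p of 0.962 (limma, iΔEC/iΔEC over loxP/loxP). The same-numbered iΔEC/iΔEC and loxP/loxP libraries deviated together (correlations 0.2475, 0.1776 and 0.1873, with differently numbered ones between -0.1396 and -0.041). Deviations were taken from each group's mean, so negative values for differently numbered libraries follow from positive same-number values and add nothing to them. Because of the same-number values, the number was also fitted as a block and, chosen after seeing the data, the shares were compared over pairs. This pairing comes from the data, since the labels give only numbers. The named wider genes were, per group, the 2 with the largest change among those that passed and did not overlap. The genes, the pathway groups and the marker lists were chosen with earlier results of these data known. Coding identity was computed over the longest reading frames of GENCODE M21 transcripts, and promoter windows are from RefSeq (GRCm38.p6). A group and a gene of the wider list and a list of markers are not reported here.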

Additional observations from a re-analysis of the deposited data

Results flagged for a closer look

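In 2 of 36 sets of values examined, 1 library lay far from the rest of its group, where chance gives about 1 in 20 sets, or 1.8. Both concern the share of Actb in the sum of Actb and Actg1. In saline 1 it was 51.6%, and 64.7 to 66.3% in the other saline libraries. In LPS 6 it was 63.2%, and 70.2 to 74.1% in the other LPS libraries. Saline 1 had the highest leukocyte marker sum of its group (393 FPKM) and LPS 6 the lowest of its own (1416 FPKM). Saline 1 was also the highest of its group for the endothelial (5207 FPKM) and epithelial (2777 FPKM) sums. The part of these sums in the shares was not tested.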

How the results depend on the processing

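In LPS over saline, the number of the 10 genes that were lower (1) was 3 after quantile normalization, 3 after scaling on total reads, 0 after scaling on the endothelial markers, 0 with a replicate block and 1 to 2 with a library left out, and the number of lower pathway genes (17) was 28 after quantile normalization and 3 after scaling on the endothelial markers. With the endothelial scaling, where the all-gene median was 0.60, Rdx, Cttn and Limk2 turned to 0.35, 0.44 and 0.32. The cause was not tested. Among all genes, 4399 were higher and 3529 lower, against 3570 and 4295 after quantile normalization, 3462 and 4671 after scaling on total reads and 7610 and 744 after scaling on the endothelial markers. The difference in the Actb share ran from 5.535 (without saline 1) to 10.62 percentage points (without LPS 6) with a library left out and lost its call in 9 of 10 cases. On shares of reads the ezrin difference was 2.97 percentage points in place of 5.29 and in iΔEC/iΔEC -1.56 in place of -2.54. Saline and LPS libraries share only a number (same-number correlations from -0.209 to 0.0972), and the replicate block put Limk2 at -0.36 (limma, adjusted p = 0.0654). The block changed no other call on the 10 genes in either experiment. The number of higher genes among the 10 stayed between 6 and 8 under the alternatives.

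In iΔEC/iΔEC over loxP/loxP, where 0 of the 10 genes passed under any alternative run, signs turned with the scaling. On the endothelial markers, where the all-gene median was -0.18, Rdx, Msn, Actg1, Cttn, Limk1, Limk2, Cfl1 and Vasp were at -0.08, -0.05, -0.07, -0.04, -0.04, -0.18, -0.21 and -0.23. Relative to that median the first 5 stayed above 0 (0.10 to 0.14), Limk2 was at 0.00, and Cfl1 and Vasp were at -0.03 and -0.05. On total reads Limk2, Cfl1 and Vasp were at -0.02, -0.04 and -0.06, and after quantile normalization Vasp was at -0.04. With a library left out, Ezr ranged from -0.40 to 0.11, Rdx from -0.03 to 0.41, Actb from -0.18 to 0.11, Cfl1 from -0.11 to 0.16 and Vasp from -0.10 to 0.14. The differences in share ranged from -1.418 to 2.985 percentage points for Rdx, from -1.602 to 4.49 for Msn and from -1.235 to 1.251 for Vasp. With 3 libraries a group, exact permutation cannot go below p = 0.1.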
